A study of Homo sapiens with 19 samples.

Results

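The mitochondrial ribosomal protein genes are the nuclear genes whose current symbols begin with MRPL or MRPS and a digit, which encode the protein parts of the mitochondrial ribosome. They were chosen by name, without pseudogenes and antisense genes, and all 77 such protein-coding genes of the RefSeq annotation had a probe on the array, out of 20499 genes with a named probe. Each gene was represented by its brightest probe. All 77 were tested for a trend over time together with the other genes, 16692 in all. 76 of them were well above background, the scanner's call that a spot is brighter than its surroundings, on all 19 arrays. The remaining one, MRPL9, was well above background on 18 arrays and had no value at 8 h, where its spot was flagged.

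The samples were KhES-3 cells, a human embryonic stem cell (hESC) line that was kept on irradiated mouse fibroblasts per the labels and without feeder cells per the methods of the study, and were taken at 19 time points between 3 and 72 h after the start of differentiation into brown adipocytes (BAs). Every sample received the same treatment, namely a serum-free medium in low-attachment dishes with insulin, transferrin, selenium, lipids, ascorbic acid and a cocktail of IGF-II, BMP4, VEGFA, KITLG, FLT3LG and IL-6. Each time point has 1 sample on 1 one-colour Agilent array, so there are no replicates, no array of untreated cells was analysed here, and the only error of a trend is the deviation of single arrays from a fitted line. Slide 1 held the 6 arrays from 3 to 12 h, slide 2 the 8 arrays from 14 to 42 h and slide 3, scanned on a later day, the 5 arrays from 48 to 72 h, so time and slide cannot be fully told apart.

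The mitochondrial ribosome translates the few respiratory chain proteins that are encoded in mitochondrial DNA. Its ribosomal RNA comes from the mitochondrial genome, whereas all of its proteins are made in the cytosol from nuclear genes and are then imported. Some of these proteins descend from bacterial ribosomal proteins and others exist only in mitochondria. BAs are rich in mitochondria, and pluripotent stem cells carry comparatively few and immature ones.

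At these early hours, the cells still showed the markers of stem cells, and those of BAs only at low signal. All 5 pluripotency markers with a named probe (POU5F1, NANOG, SOX2, LIN28A and DPPA4) were well above background on all 19 arrays, and their summed signal was 447130 to 456500 at 3, 4 and 6 h and 374890 to 388810 at 60, 66 and 72 h. None of the 6 BA markers was well above background on all arrays. PRDM16 was so on 13 arrays, the uncoupling protein gene UCP1 and CIDEA on 8 each, PPARG on 5, MYF5 on 1 and EBF2 on none. The summed signal of these 6 was 150 to 345 early and 134 to 144 late. The summed signal of 5 fibroblast markers was 39249 to 42468 early and 29860 to 47099 late, that of 5 mesendoderm markers 1337 to 1612 and 910 to 2166, that of 2 neuroectoderm markers, of which SOX1 was above background on no array, 118 to 199 and 24.3 to 28.7, and that of 4 trophoblast markers 6663 to 7834 and 9132 to 12805. The part of these cell types in the results below was not tested. In such bulk samples, fewer cells of a type and less RNA per cell cannot be told apart.

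Expressions of the mitochondrial ribosomal protein genes decreased together in the first 3 days. Of the 77 genes, 60 fell, 1 rose (MRPS25) and 16 passed no threshold, by limma's slope of log2 signal on hours at a Benjamini-Hochberg adjusted p under 0.05 over all probes tested. Of all genes tested, 29.8% fell and 24.6% rose, and of those well above background on all 19 arrays 33.3% fell and 22.9% rose, against 77.9% of the mitochondrial ribosomal protein genes that fell. The slope was below 0 in 71 of the 77. From the mean of the 3 earliest arrays (3, 4 and 6 h) to that of the 3 latest (60, 66 and 72 h), their median log2 difference was -0.50, which is a signal 29.2% lower, with quartiles of -0.68 and -0.29, beside a median of -0.05 and quartiles of -0.46 and 0.41 over all genes tested. The median of the members was -0.28 with normexp and quantile normalization, -0.90 with array medians and -1.14 with spike-in RNA. The late mean was lower in 73 of the 77. In 65 all 3 late arrays lay below all 3 early arrays, as in 35.7% of all genes. In 3 they lay above them, a share that was not taken over all genes. The changes were moderate in size: only MRPL1, MRPL14 and MRPL21 were at least 2-fold lower late, as were 5.87% of all genes.

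**Figure D1:**
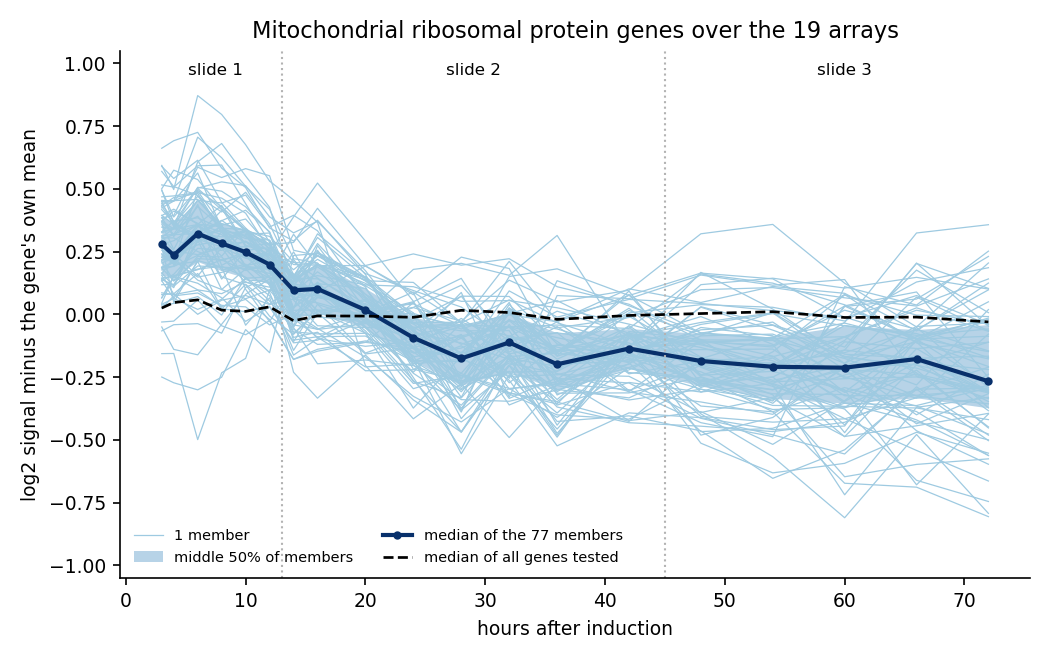
Log2 signal of each of the 77 mitochondrial ribosomal protein genes minus its own mean over the 19 arrays, against hours after induction. Thin lines are genes, the thick line is their median, the band is the middle 50% and the dashed line is the median of all genes tested. Dotted lines part the slides. The median of the 77 went from 0.28 on the first array through -0.18 at 28 h to -0.27 on the last, whereas that of all genes stayed between -0.03 and 0.06.

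The decrease was neither immediate nor even. The median of the 77 genes, each taken about its own mean, began at 0.28 on the 3 h array, peaked with 0.32 at 6 h and had 0.20 left by 12 h. It then passed 0.10 (14 h), 0.02 (20 h) and -0.09 (24 h) to reach -0.18 by 28 h. From there it moved little and lay between -0.11 (32 h) and -0.27 (72 h). Most of the difference lay between 6 and 28 h. From the early window to a middle window (28, 32 and 36 h) the median log2 difference was -0.45, with 72 of 77 genes lower, and from the middle to the late window it was -0.03, with 46 of 77 lower. Over all genes tested these medians were -0.04 and -0.03. 64 genes had their highest signal at 3 to 12 h, 32 of them at 6 h, and 74 had their lowest at 24 to 72 h, 21 of them at 72 h.

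The steepest part of the time course ran across the border of slides 1 and 2, so the slides were examined separately. Across that border, from 12 to 14 h, the median log2 difference was -0.12, and across the next, from 42 to 48 h, it was -0.04. Inside slide 2 alone, the mean of 36 and 42 h was lower than that of 14 and 16 h in 68 of 77 genes, with a median log2 difference of -0.29, where that of all genes tested was -0.003. Inside slide 1 (10 and 12 h against 3 and 4 h) the median was -0.02 with 43 genes lower, and inside slide 3 (66 and 72 h against 48 and 54 h) it was -0.02 with 43 lower. limma's slope within a slide reached the threshold for MRPL24 and MRPL34 on slide 1, for MRPL3, MRPL21, MRPL27, MRPL54, MRPS14, MRPS15 and MRPS28 on slide 2 and for no gene on slide 3. These 2, 7 and 0 falls stand beside 3.29%, 3.21% and 0.713% of all genes that fell, and no member rose, as did 1.84%, 4.13% and 0.341% of all genes. With the slide as a block in the fit over all arrays, 14 of the 77 fell and none rose, and 70 slopes stayed below 0, while 5.97% of all genes fell and 4.12% rose. All 14 were also among the 60: MRPL11, MRPL13, MRPL16, MRPL21, MRPL22, MRPL45, MRPL47, MRPL50, MRPL55, MRPS15, MRPS18C, MRPS21, MRPS28 and MRPS35. The other 46 falls did not pass with the slide as a block, so over all arrays time and slide cannot be told apart for them. Among these 46, MRPL34 passed within slide 1, and MRPL3, MRPL27, MRPL54 and MRPS14 within slide 2.

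The scaling between arrays changed the number of falling members less than the slide did. With the 75th percentile taken over probes, 63 fell and 1 rose (32.7% and 21.3% of all genes). With normexp background correction and quantile normalization, 43 fell and 9 rose (26.2% and 22.4% of all genes), and with the deposited intensities 50 fell and 5 rose (22.9% and 30.9%). With log2 hours, 64 fell and 2 rose (29.9% and 24.7%), and with the arrays from 3 to 54 h, 64 fell and 1 rose (27.5% and 23.6%). Without the 14, 16 and 72 h arrays, which had the fewest probes above background, 59 fell and 2 rose (28.6% and 24.1%).

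**Figure D2:**
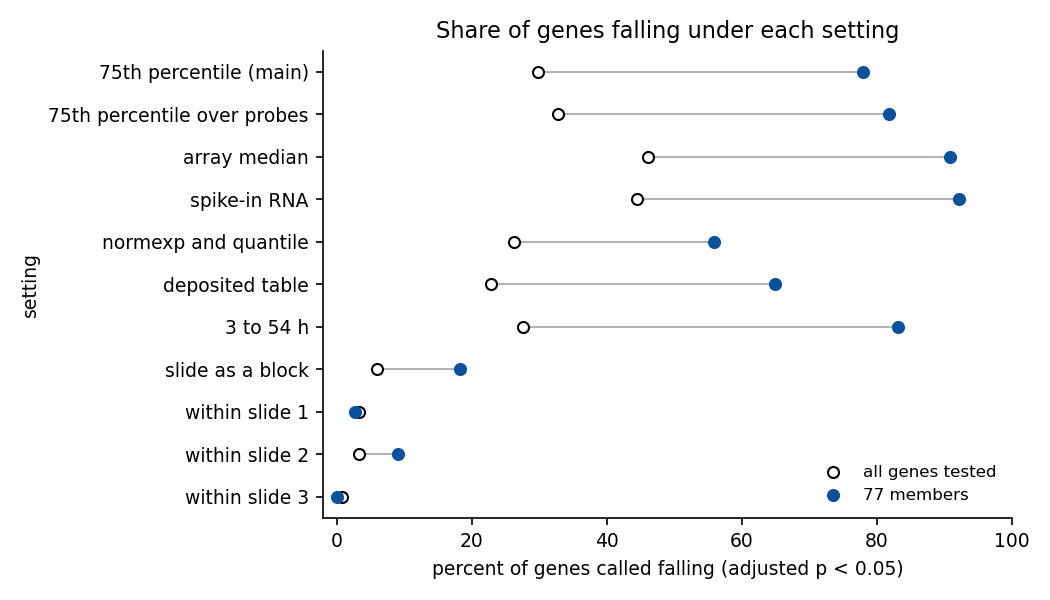
Percent of genes called falling (horizontal axis, limma adjusted p under 0.05) under each scaling, time range or treatment of the slides (vertical axis). Filled points are the 77 mitochondrial ribosomal protein genes and open points all genes tested. The filled point lies right of the open one for every scaling, from 43 of 77 falling with normexp and quantile normalization to 71 of 77 with spike-in RNA, and close to it within slides 1 and 3.

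Both subunits took part. The large subunit joins amino acids into the chain, and the small subunit holds the messenger RNA. MRPS18A and MRPS30 carry names of the small subunit but belong to the large one, and were counted there. Of the 51 large subunit genes, 41 fell and none rose, with a median log2 difference of -0.53, and of the 26 small subunit genes, 19 fell and 1 rose, with a median of -0.40. Of 45 genes with a bacterial counterpart 36 fell (median -0.53), and of 31 without one 23 fell and 1 rose (median -0.44). Of the stalk that recruits elongation factors, MRPL11 and MRPL12 fell, and MRPL10 fell by its brightest probe only, as described with the second probes. MRPL1 of the L1 stalk, through which spent transfer RNA leaves, also fell. In the central protuberance, the part of the large subunit that faces the head of the small one, 5 of 7 fell, and around the exit for the new protein 3 of 6. None of these groups was tested against another.

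**Figure D3:**
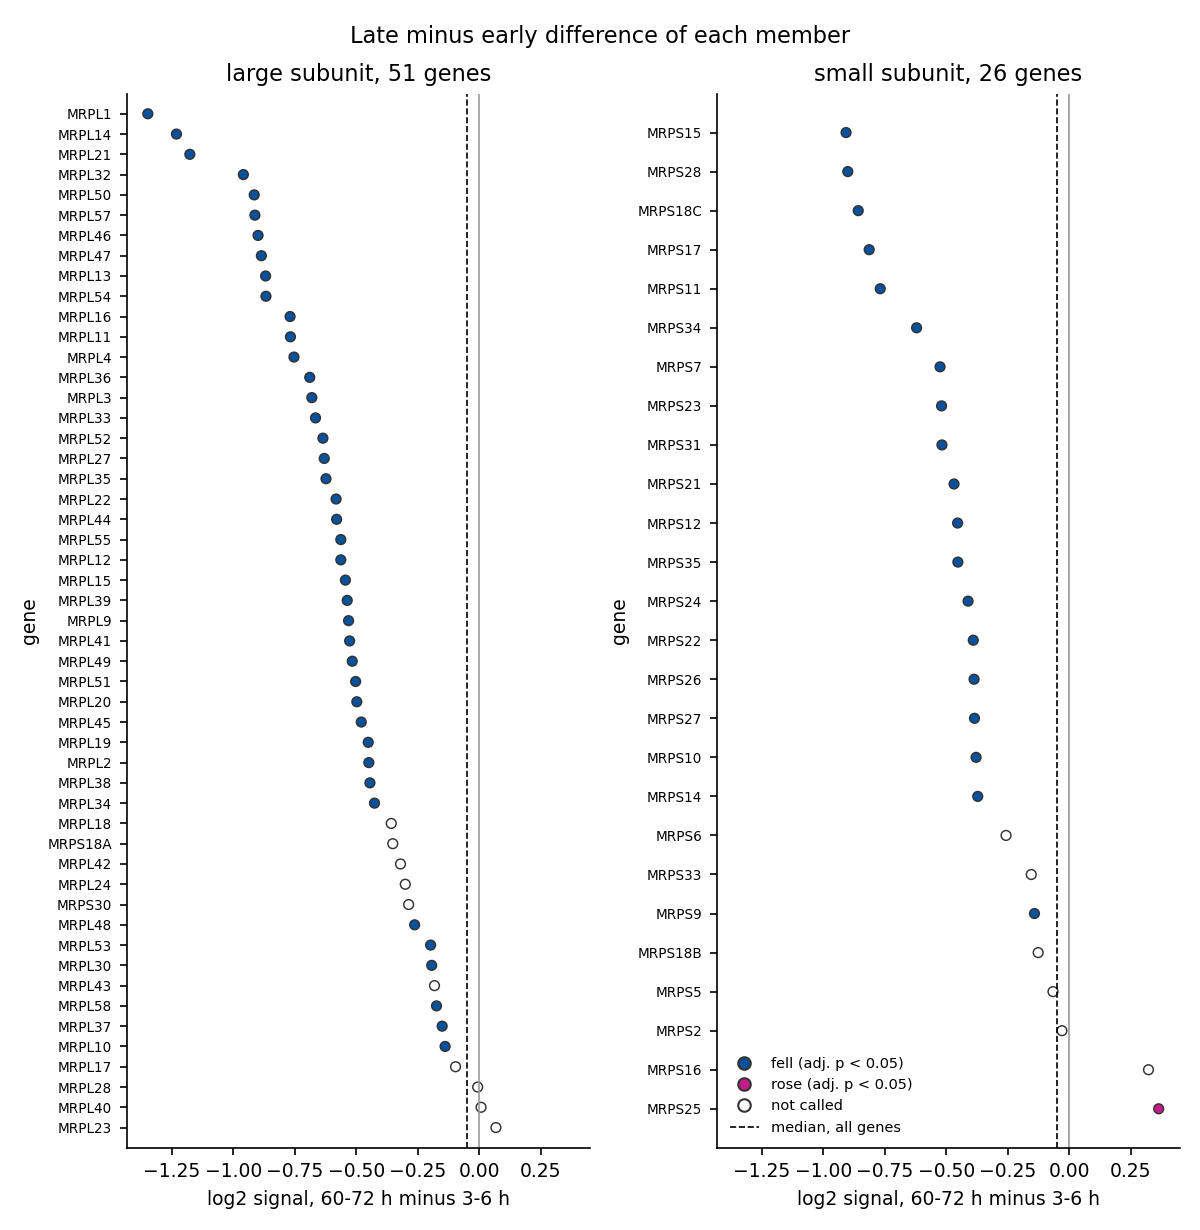
Late minus early difference in log2 signal (horizontal axis, mean of 60, 66 and 72 h minus mean of 3, 4 and 6 h) of each gene (vertical axis), for the 51 large subunit genes on the left and the 26 small subunit genes on the right. Blue points fell, the pink point rose and white points passed no threshold in limma's slope over all arrays. The dashed line is the median of all genes tested, -0.05. MRPL1 is lowest at -1.35 and MRPS25 highest at 0.36.

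MRPL1 (NM_020236), a protein of the L1 stalk, had the steepest slope. Its signal, given like all signals at a common 75th percentile of 871, was 522, 488 and 633 at 3, 4 and 6 h and 197, 248 and 200 at 60, 66 and 72 h, with 633 as the highest, 300 as the median and 197 as the lowest of the 19 arrays. The late arrays did not overlap with the early ones, and the signal dropped from 446 at 16 h to 300 at 20 h and 259 at 24 h. Its slope was -0.0223 log2 per hour (SE 0.00286, limma adjusted p = 3.42e-06), and with the slide as a block the adjusted p was 0.133.

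MRPL14 (NM_032111), which lies at the interface of the subunits, followed with 6773, 6915 and 7077 early and 2837, 3091 and 2918 late, a lowest signal of 2763 and a median of 3891. It was already down to 5435 by 12 h, the last array of slide 1. The slope was -0.0203 (SE 0.00249, limma adjusted p = 2.06e-06) and lost the threshold with the slide as a block (adjusted p = 0.0877).

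MRPL21 (NM_181515), a large subunit protein with a bacterial counterpart, kept to 28832 to 33170 on the 6 arrays of slide 1, then decreased from 26370 at 14 h through 22018 at 24 h and 17785 at 42 h to 12636 at 72 h, its lowest value. Its slope was -0.0199 (SE 0.00147), and the fall held with the slide as a block (adjusted p = 0.00299) and within slide 2 (adjusted p = 0.0194).

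MRPS28 (NM_014018), the counterpart of bacterial S1, gave 13193, 12050 and 13267 early and 6441, 7615 and 6606 late, with a lowest signal of 5953 at 54 h. MRPS15 (NM_031280), which binds ribosomal RNA in the small subunit, gave 9056, 9046 and 9294 early and 4497, 5413 and 4736 late. Neither gene overlapped between the windows. Both fell also with the slide as a block (adjusted p = 0.0467 and 0.0428) and within slide 2 (adjusted p = 0.0167 and 0.0335).

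The other 3 of the 8 steepest falls are large subunit genes. MRPL54 (NM_172251), found only in mitochondria, lay at 7448 to 9056 early and 4120 to 4529 late. MRPL32 (NM_031903), whose precursor is cut by a mitochondrial protease before assembly, lay at 29427 to 30946 early and 14529 to 16517 late. MRPL47 (NM_020409), near the peptide exit, lay at 24996 to 27497 early and 12791 to 16509 late. In none of the 3 did the windows overlap. Of them only MRPL47 fell with the slide as a block (adjusted p = 0.00564, against 0.151 for MRPL54 and 0.0806 for MRPL32).

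**Figure D4:**
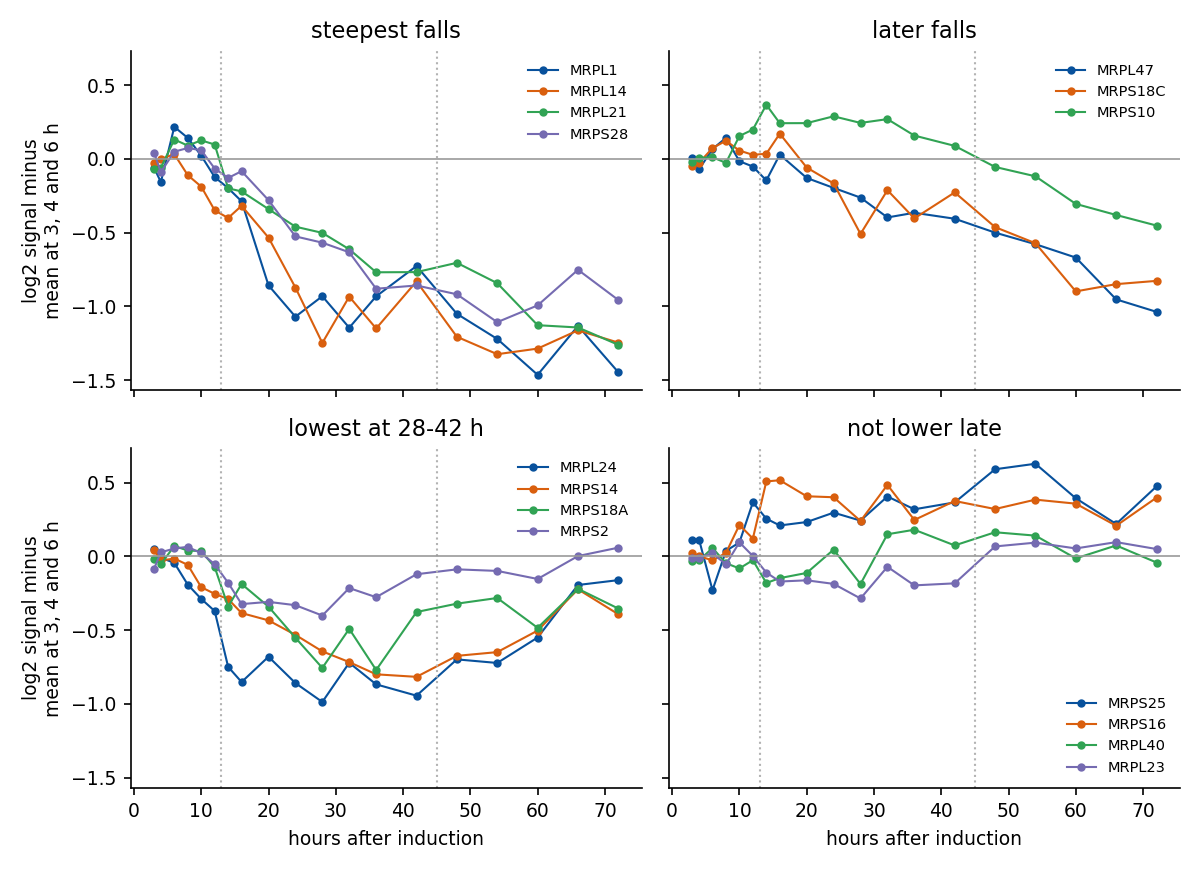
Log2 signal minus the gene's mean at 3, 4 and 6 h (vertical axes) against hours after induction (horizontal axes) for 15 mitochondrial ribosomal protein genes in 4 panels grouped by shape after their values were seen, 1 point per array. Dotted lines part the slides. MRPL1 loses most before 24 h, MRPL47 and MRPS10 go on falling after 42 h, MRPL24 is lowest at 28 h, and MRPS25 and MRPS16 lie above 0 from 8 h on.

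The genes differed in timing. Of the 60 that fell, 51 lost more before the middle window than after it, and 9 more after it. In MRPL47 the log2 difference was -0.34 from the early to the middle window and -0.54 from the middle to the late window, in MRPS18C -0.37 and -0.48, and in MRPS10, which was chosen here after its values were seen, 0.22 and -0.60. Other genes came back: 30 of the 77 were lower in the middle window and then higher again in the late one. MRPL24 (NM_145729), near the peptide exit, showed this most, with 3683 to 3935 early, 1915 at 28 h and 3319 and 3396 at 66 and 72 h. Its log2 difference was -0.86 to the middle and 0.56 from there to the late window, and its straight-line slope was not called (adjusted p = 0.413), although it passed as a fall with 3 to 54 h (slope -0.0159, adjusted p = 0.00405), log2 hours (0.0275) and spike-in RNA (0.0053), and it had the largest scatter of the members around the line (SD 0.35 in log2). MRPS17 (NM_015969), the third by scatter, fell overall (adjusted p = 0.00043, and 0.474 with the slide as a block) with 9896 to 10497 early, a lowest 4799 at 28 h and 5219 to 6596 late. MRPS2 (NM_016034), a protein of the small subunit, had the slope nearest 0 (0.000134, SE 0.00174), with 25898 to 28464 early, 20767 at 28 h and 24663 to 28573 late.

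Apart from these, most members moved alike. Across the 19 arrays, the correlation of a gene with the median of the other members had a median r of 0.86 (range -0.78 to 0.98) and lay above 0.5 in 66 genes and below 0 in 4. All genes tested had a median r of 0.04 with the median of the members and an upper quartile of 0.61. An r above 0.5 was thus not confined to the members. These arrays share time, slide and scaling, so r is a description only. The scatter around the line had a median SD of 0.15 in log2, beside 0.23 over all genes tested.

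MRPS25 (NM_022497), a small subunit protein without a bacterial counterpart, was the single member that rose. It gave 1580, 1580 and 1246 early and 1919, 1701 and 2029 late, with the highest signal of 2257 at 54 h, so the windows did not overlap. The slope was 0.00625 (SE 0.0017, limma adjusted p = 0.00457). It did not pass with the slide as a block (adjusted p = 0.903), and its sign turned to -0.00221 with spike-in RNA as the scaling. MRPS16 (NM_016065) also ran against the rest, with 90829 to 94102 early and 106878 to 121988 late, but its slope of 0.0036 (SE 0.00182) did not pass (adjusted p = 0.102). It passed as a rise in the deposited table (adjusted p = 0.0175) and turned to -0.00487 with spike-in RNA. Its second, dimmer probe fell (slope -0.00898, adjusted p = 0.000749), so the 2 probes of this gene give no single answer. MRPL40 and MRPL23, also higher late, had log2 differences of 0.01 and 0.07 and were not called.

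MRPS18A, MRPS18B and MRPS18C are paralogues, of which a ribosome holds each at a different place. MRPS18C (NM_016067), which takes the place of bacterial S18, fell, with 21027 to 22854 early and 11650 to 12241 late (slope -0.0145, SE 0.00156, limma adjusted p = 4.32e-07, and 0.0416 with the slide as a block). MRPS18A (NM_018135) gave 4780 to 5206 early, 2907 at 36 h and 3544 to 4257 late and was not called (adjusted p = 0.0646), but it fell with array medians (0.00689), spike-in RNA (0.00141), the 75th percentile over probes (0.0405), log2 hours (0.00656) and 3 to 54 h (0.022). MRPS18B (NM_014046) stayed between 17259 and 20839 on all 19 arrays (adjusted p = 0.361). The differences between their slopes were not tested. MRPL43 (NM_176793) lay between 5367 and 6649 (adjusted p = 0.463). MRPS18B and MRPL43 were called both ways in other settings, as falls with array medians (adjusted p = 0.0024 and 0.0104) and spike-in RNA (0.0251 and 0.0424) and as rises with normexp and quantile normalization (0.0117 and 0.0435). MRPL9 (NM_031420) fell over its 18 arrays, with 15110 to 16422 early and 10551 to 10953 late (adjusted p = 1.06e-05, and 0.127 with the slide as a block).

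14 members had a second tested probe, which allows a check within the gene. Of the 14 brightest probes 10 fell, and of the 14 others 6 fell and 1 rose, with both probes falling in 5 genes. Of all 32113 probes tested, 22.4% fell. The share that rose was not taken over probes. In MRPL32 both probes gave about the same slope (-0.0146 and -0.0144). In MRPL10 (NM_148887), of the stalk, the brightest probe fell slightly (slope -0.00258, adjusted p = 0.0436), with 17404 to 21759 over the 19 arrays, whereas the other probe rose (slope 0.00818, adjusted p = 0.000152). The first call was lost when any of 13 arrays was left out (adjusted p up to 0.130, without the 72 h array), and with the mean of both probes the slope was 0.0028. The RefSeq annotation names 106 pseudogenes after members. Of the 41 members with such a pseudogene 32 fell, and of the 36 without one 28 fell. Whether probes also bind pseudogene transcripts was not tested.

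Some sequence motifs, not used in the choice by name, were more frequent in the promoters of these genes than of tested genes. RefSeq promoter windows (GRCh38.p14) of 300 bases, from 250 before to 50 after the start, were matched to 69 members, taking the first window listed for a gene; MRPL2, MRPL10, MRPL13, MRPL15, MRPL21, MRPL23, MRPL35 and MRPS28 were not matched. Of 7 motifs searched as exact letters on both strands, the one bound by ETS factors such as GABPA (CCGGAAG) was found in 29 of the 69 (42.0%), in 10.7% of all 27305 promoters and in 16.8% of those of tested genes. The motif of YY1, a zinc finger factor (AAGATGGCG), was found in 13 (18.8%), in 1.85% of all promoters and in 3.29% of those of tested genes. 38 of the 69 (55.1%) held at least 1 of these motifs, against 12.1% of all promoters. That share was not taken over tested genes, where each motif was more frequent. MRPL38, MRPL52, MRPS10 and MRPS18A held both. No member held both in overlap. Taking every window listed for a gene, the ETS and YY1 shares were 43.5% and 18.8%, beside 19.3% and 3.85% of tested genes. The other motifs stood closer to the genes tested: GGGCGG of SP1 in 60.9% (65.5% of tested genes), CCAAT of NFY in 20 of 69 (36.0%), the E-box CACGTG in 8.70% (9.59%), the palindromic NRF1 motif in 1.45% (2.12%) and TCAAGGTCA of ESRRA in 0 of 69 (0.233%). A match is a description of letters and not of binding.

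Windows of 5 members are shown, because they hold the ETS or YY1 letters in members described here, or, for MRPS25, neither. Capitals mark matches of CCGGAAG or AAGATGGCG, or of their reverse complements. MRPL47 (chr3:179604589-179604888, minus strand) has the ETS letters beginning 39 bases before the start. MRPL32 (chr7:42932126-42932425, plus strand) has the YY1 letters in reverse, 223 bases before it. MRPL52 (chr14:22829637-22829936, plus strand), a large subunit protein found only in mitochondria, has the YY1 letters 98 and 64 bases before it and the ETS letters in reverse 5 bases before it. MRPL46 (chr15:88467339-88467638, minus strand), of the central protuberance, has the YY1 letters 8 bases after the start base. MRPS25 (chr3:15065266-15065565, minus strand), the gene that rose, has no match in this window.
MRPL47: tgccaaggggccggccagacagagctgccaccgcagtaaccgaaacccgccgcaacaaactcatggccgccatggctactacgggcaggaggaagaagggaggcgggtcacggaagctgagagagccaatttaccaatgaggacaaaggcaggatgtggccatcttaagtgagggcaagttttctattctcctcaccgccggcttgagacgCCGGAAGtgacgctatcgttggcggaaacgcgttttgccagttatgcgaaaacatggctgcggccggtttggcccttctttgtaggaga
MRPL32: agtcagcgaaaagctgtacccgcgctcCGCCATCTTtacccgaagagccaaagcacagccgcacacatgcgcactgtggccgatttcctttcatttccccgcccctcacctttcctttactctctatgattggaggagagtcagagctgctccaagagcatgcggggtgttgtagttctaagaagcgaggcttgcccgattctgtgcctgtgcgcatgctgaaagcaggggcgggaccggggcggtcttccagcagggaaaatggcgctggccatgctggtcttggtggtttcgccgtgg
MRPL52: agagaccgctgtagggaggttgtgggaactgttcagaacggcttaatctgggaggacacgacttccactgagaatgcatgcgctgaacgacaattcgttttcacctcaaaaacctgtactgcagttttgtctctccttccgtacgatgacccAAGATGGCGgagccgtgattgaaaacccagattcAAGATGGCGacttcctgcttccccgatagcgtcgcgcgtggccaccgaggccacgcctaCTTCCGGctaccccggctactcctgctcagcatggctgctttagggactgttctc
MRPL46: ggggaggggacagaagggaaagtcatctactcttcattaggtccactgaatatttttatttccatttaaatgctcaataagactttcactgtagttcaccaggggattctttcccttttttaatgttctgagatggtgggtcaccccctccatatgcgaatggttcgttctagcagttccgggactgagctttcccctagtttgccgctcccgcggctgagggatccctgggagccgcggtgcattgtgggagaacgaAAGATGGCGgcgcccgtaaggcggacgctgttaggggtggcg
MRPS25: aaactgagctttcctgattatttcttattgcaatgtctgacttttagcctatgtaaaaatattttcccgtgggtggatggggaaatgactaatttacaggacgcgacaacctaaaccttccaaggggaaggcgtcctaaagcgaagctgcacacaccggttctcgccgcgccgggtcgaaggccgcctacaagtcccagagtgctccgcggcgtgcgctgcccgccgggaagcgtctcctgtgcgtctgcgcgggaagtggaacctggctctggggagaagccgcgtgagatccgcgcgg

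The motifs did not separate members by their change. Of the 38 members with the ETS or YY1 letters 29 fell, with a median log2 difference of -0.46, and of the 31 without them 24 fell, with a median of -0.52. MRPS16 and MRPL40, both higher late, hold the ETS letters, as do MRPL47 and MRPL54, both among the steepest falls.

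Several members start back to back with another gene. 18 of the 69 (26.1%) had a protein-coding neighbour on the opposite strand whose start lay within 1000 bases and pointed away, as had 12.2% of tested protein-coding genes. MRPL46 and MRPS11, whose starts lie 320 bases apart, are both members, and both fell (adjusted p = 9.78e-05 and 0.00145). Among the other 16 pairs, 12 members and 6 of the neighbours fell, and 4 neighbours rose, and these counts of neighbours are near the 29.8% and 24.6% of all genes. Member and neighbour fell together in 4 pairs, such as MRPL32 with the proteasome gene PSMA2, 202 bases apart, and MRPS12 with the mitochondrial seryl-tRNA synthetase gene SARS2, 181 bases apart. In 4 other pairs the member fell and the neighbour rose. MRPL27 and the endonuclease subunit gene EME1, with starts 45 bases apart, had slopes of -0.0134 and 0.0186, and MRPS18C and the helicase gene HELQ, 175 bases apart, -0.0145 and 0.00984. These pairs were picked as examples after their values were seen.

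Other genes of mitochondrial gene expression were examined in lists written with earlier results of these data known. Beside the counts of these lists, 29.8% of all genes fell and 24.6% rose. Of 5 mitochondrial ribosomal proteins with other symbols 3 fell, with a median log2 difference of -0.44. The largest falls were in CHCHD1 (17329 early and 8710 late, adjusted p = 2.32e-08, and 0.0457 with the slide as a block) and GADD45GIP1 (11550 and 7545, adjusted p = 2.93e-05, and 0.152 with the slide as a block). Of 22 import genes with a named probe (23 listed, without GRPEL1) 16 fell and none rose (median -0.53), among them TOMM40, the pore of the outer membrane (33141 and 15694, adjusted p = 4.95e-08), and TIMM8B, a small chaperone between the membranes (67003 and 30755, adjusted p = 9.63e-09). Both passed also with the slide as a block (adjusted p = 0.0169 and 0.00354).

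Of 25 factors that assemble the ribosome 12 fell and 3 rose (median -0.31), beside 29.8% and 24.6% of all genes. MTG1, a GTPase of large subunit assembly, went from a mean signal of 461 early to 130 late (adjusted p = 1.23e-06, and 0.0259 with the slide as a block), and ERAL1, which binds small subunit RNA, from 2663 to 1697 (adjusted p = 9.06e-05, and 0.144 with the slide as a block). METTL15, a methyltransferase of the small subunit RNA, rose from 1232 to 1832 (adjusted p = 1.17e-06, and 0.0205 with the slide as a block), as did TFB1M, another such methyltransferase, from 2883 to 3339 (adjusted p = 0.00624, and 0.458 with the slide as a block). With array medians or spike-in RNA as the scaling, no gene of this list rose.

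Of 15 mitochondrial translation factors with a named probe (16 listed, without PDF) 8 fell and 2 rose (median -0.29). The shares of all genes were 29.8% and 24.6%. SLIRP, which stabilises mitochondrial messenger RNA, fell from 115710 to 66639 (adjusted p = 3.32e-08), and the elongation factor TSFM from 8123 to 4806 (adjusted p = 5.87e-06). With the slide as a block these were 0.0221 and 0.0365. MTRF1 and MTRFR, both of the release factor family, rose from 791 to 1214 (adjusted p = 0.0012) and from 854 to 1062 (adjusted p = 0.0364, lost without any 1 of 5 arrays). Neither rise was kept with array medians or with the slide as a block. Of 9 genes of mitochondrial transcription and DNA upkeep 4 fell and none rose (median -0.56), beside the same shares of all genes. TFAM, which packages and transcribes mitochondrial DNA, was at 14327 early and 7533 late (adjusted p = 5.7e-06, and 0.32 with the slide as a block). SSBP1, the single-strand binding protein, was at 30028 and 15277 (adjusted p = 1.26e-07, and 0.0417 with the slide as a block).

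Of 10 regulators of mitochondrial biogenesis 5 fell and 1 rose (median -0.48), beside 29.8% and 24.6% of all genes. GABPB1, the partner of GABPA, fell from 1421 to 736 (adjusted p = 0.000728), and PPARGC1A, the coactivator known for its part in BAs, from 137 to 88.2 (adjusted p = 0.0038). The PPARGC1A call was lost with the arrays from 3 to 54 h (adjusted p = 0.421), as it was when those at 14, 16 and 72 h were left out (0.0593). ESRRG, above background on 15 arrays, rose from 43.1 to 77.2 (adjusted p = 0.0107), a call lost with array medians (0.365), spike-in RNA (0.845), normexp (0.367) and 3 to 54 h (0.494). Of the factors whose motifs were searched, GABPA fell from 1051 to 781 (adjusted p = 0.00196) and NRF1 from 309 to 227 (adjusted p = 0.00119), and YY1 was not called, with 12388 and 10777 (adjusted p = 0.125). Of all these regulators only PPARGC1A passed with the slide as a block (adjusted p = 0.0195).

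The genes of the cytosolic ribosome, which is the nearest counterpart in the same cells, gave another picture under the main scaling and a less certain one under others. Of 85 tested, 6 fell and 9 rose, beside 29.8% and 24.6% of all genes, with a median log2 difference of 0.11. The 85 include paralogues, and RPL22L1, RPL26L1 and RPL7L1 are among the falls. So is RPL27A, whose probe had a mean signal of only 414 early. The other falls were RPS26 and RPL14. RPS26 went from 283478 early to 176533 late (limma adjusted p = 2.77e-07, and 0.0261 with the slide as a block). RPL14 went from 214437 to 201886 (limma adjusted p = 0.0403, and 0.447 with the slide as a block). None of the 85 rose with the slide as a block, array medians or spike-in RNA. With the slide as a block 4 fell, beside 5.97% of all genes. With scaling to array medians 46 of the 85 fell, and with spike-in RNA 55 did, while 70 and 71 of the 77 mitochondrial ribosomal protein genes fell and none rose. Of all genes, 46.1% fell and 9.77% rose with array medians, and 44.5% and 3.58% with spike-in RNA. The median log2 difference moved in step: it was -0.90 in the members and -0.45 in all genes with array medians, and -1.14 and -0.70 with spike-in RNA, where the distance of the members from all genes stays at -0.45 by construction, since these scalings shift all genes of an array alike. With normexp and quantile normalization, which do not, that distance was -0.24.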

How the data were processed

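The measurements are 19 one-colour arrays of KhES-3 cells labelled with Cy3, 1 per time point and slide position. The authors deposited the output of Agilent Feature Extraction 10.10.1.1, in which the processed signal of a spot is an intensity with background subtracted and no scaling between arrays, beside raw median pixel intensities and flags of 0 or 1 for spots well above background or set apart as outliers. A second deposited table of the authors holds intensities equal to the processed intensity times 1 factor per array (0.9051 to 1.378). The rule behind the factors is not given in the sources used here. Each factor lay within 1.2% of the 8 h array's 75th percentile over probes divided by that of the array itself. Flagged spots (0.632%) were left out, no spot was saturated, spots of a probe were averaged, and log2 intensity minus the array's 75th percentile over spots was used. The scanner called 49.5% to 64.7% of the probes of an array well above background. The number of arrays limits the precision, and p-values measure the scatter of single samples around a line.

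Of 50683 probes, 28170 were matched through RefSeq accessions to 20499 genes (GRCh38.p14). The slope on hours was fitted with limma 3.58.1 in R 4.3.3 over 32113 probes (those well above background on 5 or more arrays), with Benjamini-Hochberg adjustment over all of them. In a simulation of this fit with 200 changed probes of 32113, 144 were recovered among 151 calls. The simulated noise was independent between arrays and held no slide effect. All simulated slopes were steeper than the members' median of -0.0082 log2 per hour. The simulation thus checks the fit only and gives no error rate for the calls in these data. Promoters were searched and plots drawn in Python 3.11.15 with pandas 2.3.3 and matplotlib 3.10.9.

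The genes named with full values are the 8 members with the steepest called fall and the 8 with the steepest called rise on all 19 arrays (1 rose), the 3 slopes nearest 0, the members with the highest and the lowest mean signal, the MRPS18 paralogues, the 3 largest scatters, members whose probes differ in sign, members not above background on all arrays, and up to 2 called genes in each direction of the other lists. The members, lists and tests were chosen with earlier results of these data known. Alternatives were the array median, spike-in RNA (the 7 of 10 levels above background on every array) or normexp (offset 50, on median pixel intensities) with quantile normalization, the deposited table, other filters, log2 hours, 3 to 54 h, the slide as a block, the mean of a gene's probes, 72 h minus 3 h as the windows and each array left out in turn. Values of the deposited table were rescaled by each array's 75th percentile before the fit. The 75th percentile over probes, and leaving out the 14, 16 and 72 h arrays, which had the fewest probes above background, were added after seeing the data. Protein sequences and probe sequences were not used here.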

Additional observations from a re-analysis of the deposited data

How the results depend on the processing

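More members fell than rose under each scaling, filter and time range, with 43 to 71 of 77 falling. With the slide as a block 14 fell, 9 in the large and 5 in the small subunit, and 13 of the other mitochondrial genes fell. Leaving out 1 array at a time gave 55 to 62 falling members and 1 rising, and 53 of the 60 falls were called each time. In the same series 38 to 43 large and 17 to 20 small subunit genes fell, 45 to 50 other mitochondrial genes fell and 4 to 6 rose, and the median log2 difference lay between -0.511 and -0.461. With normexp and quantile normalization 11 small subunit genes fell. No paired analysis was possible because the 19 time points have 1 array each. The causes of these changes were not tested. Dim signals near the background are less certain. The 4 of the 60 falls that had a slope above 0 with normexp were not dim. They were MRPL10, MRPL37, MRPL58 and MRPS9, with median signals of 19653, 13556, 18458.5 and 14263. MRPL37, a fall in the main result, was called a rise there (slope 0.00235, limma adjusted p = 0.0383).

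The number of rising members, 1 in the main result, was 0 with array medians, with spike-in RNA and with the slide as a block, 9 with normexp, 5 in the deposited table, and 2 with log2 hours, without the 14, 16 and 72 h arrays, or with the mean of a gene's probes. Rising genes among the other mitochondrial lists, 6 in the main result, numbered 0 with array medians or spike-in RNA, 10 with normexp and 1 with the slide as a block. The median log2 difference was -0.897 with array medians, -1.14 with spike-in RNA and -0.277 with normexp. Some slopes (log2 per hour) changed sign. That of MRPS25 was -0.00221 with spike-in RNA. That of MRPS2 was -0.00562 with array medians, -0.00833 with spike-in RNA, -0.000886 with the 75th percentile over probes, -0.0263 per doubling of hours, -0.00323 for 3 to 54 h, -0.00154 without the 14, 16 and 72 h arrays, and from -0.00105 (without 72 h) to 0.000679 (without 6 h) with 1 array left out. That of MRPL43 was 0.00361 with normexp, 0.000945 in the deposited table, 5.83e-05 for 3 to 54 h and 0.00127 with the mean of its probes. That of MRPS18B was 0.00347 with normexp and 0.000889 in the deposited table. That of MRPS16 was -0.00215 with array medians, -0.00487 with spike-in RNA, -0.00294 with the slide as a block and -0.00269 with the mean of its probes. That of MRPL24 was 0.00297 with the slide as a block, and that of MRPL10 0.0021 with normexp and 0.0028 with the mean of its probes. That of TFB1M was -0.000959 with array medians and -0.00368 with spike-in RNA, that of MTRF1 -0.0014 with the slide as a block and that of MTRFR -0.00201 with spike-in RNA. MRPS18A, not called in the main result, also fell without the 28 h array (adjusted p = 0.039) or the 66 h array (adjusted p = 0.0337), beside the settings named in its account.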
